A study of Mus musculus with 4 samples.

Results

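The subject is 3 genes of the mouse olfactory epithelium, Nqo1, Acsm4 and Ncam2, which were chosen by name as markers of the zones of the epithelium. They are 3 of the 22399 genes counted in every library. The data are 4 droplet-based single-cell RNA libraries of the main olfactory epithelium, 2 from females and 2 from males, all from wild-type C57BL/6J mice aged 3 months. No mouse carried a transgene or received a treatment according to the labels, and the whole epithelium was dissociated, so each library mixes all of its zones. The series as a whole concerns neurexins, a family of presynaptic adhesion proteins, and the targeting of olfactory axons. The labels do not say whether a library came from 1 animal, so p-values measure the spread between these libraries.

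An olfactory sensory neuron transcribes mainly 1 odorant receptor gene, and its receptor is tied to a band, or zone, of the epithelium in which the neuron sits. NQO1 is a quinone-reducing enzyme whose transcript is known from neurons of the dorsal zone. ACSM4 (also called O-MACS) is a mitochondrial acyl-CoA synthetase known from the same zone in both neurons and supporting cells, whereas NCAM2 (OCAM) is a homophilic adhesion protein of the axons of the remaining zones. Receptors of class I, the fish-like receptors that sit in a single gene cluster, are known to be expressed dorsally, while class II receptors occur in every zone.

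The 3 genes lie on different chromosomes in GENCODE M21 (GRCm38). Nqo1 (ENSMUSG00000003849) occupies chr8:107388225-107403206 on the minus strand, Acsm4 (ENSMUSG00000047026) chr7:119690026-119714565 on the plus strand and Ncam2 (ENSMUSG00000022762) chr16:81200697-81626828 on the plus strand. The 250 bases before each RefSeq start site (GRCm38.p6) are shown because Nqo1 and Acsm4 moved together across the data below and Ncam2 moved against them. Capitals mark a match to a motif searched on both strands, and coordinates of the windows are chr8:107403206-107403455 (minus), chr7:119689776-119690025 (plus) and chr16:81200447-81200696 (plus).
Nqo1: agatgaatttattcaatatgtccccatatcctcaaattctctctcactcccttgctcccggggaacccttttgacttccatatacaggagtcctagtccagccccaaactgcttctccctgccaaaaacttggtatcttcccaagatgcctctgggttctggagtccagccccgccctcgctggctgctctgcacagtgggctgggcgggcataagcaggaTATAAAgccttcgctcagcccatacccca
Acsm4: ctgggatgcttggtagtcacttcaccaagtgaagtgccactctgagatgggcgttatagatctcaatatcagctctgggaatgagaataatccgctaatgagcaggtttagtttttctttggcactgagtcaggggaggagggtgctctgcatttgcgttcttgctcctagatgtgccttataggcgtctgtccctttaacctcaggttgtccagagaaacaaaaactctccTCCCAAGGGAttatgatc
Ncam2: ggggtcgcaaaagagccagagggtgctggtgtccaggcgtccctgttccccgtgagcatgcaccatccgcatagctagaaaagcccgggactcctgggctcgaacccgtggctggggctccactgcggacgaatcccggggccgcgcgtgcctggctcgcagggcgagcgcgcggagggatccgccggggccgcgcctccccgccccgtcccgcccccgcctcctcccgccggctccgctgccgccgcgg
The windows had little in common by the motifs searched. The Nqo1 window held a TATA box (TATAAA) at positions -29 to -24 from the start site, a match found in 12.4% of 32851 such windows. The Acsm4 window held the site of the EBF factors of olfactory neurons, TCCC and GGGA with 2 bases between, at -18 to -9, which occurred in 0.779% of windows. The Ncam2 window held no match. None of the 3 held the antioxidant response element TGACNNNGC (10.2% of windows), the LIM-homeodomain core TAATTA (4.84%) or the nuclear factor I (NFI) site, TTGGC and GCCAA with 5 bases between (0.0365%). GC content was 53.2% for Nqo1, 47.2% for Acsm4 and 75.2% for Ncam2, against a median of 52.4% and a range of 34.8% to 73.6% from the 5th to the 95th percentile of all windows. The Ncam2 window held 32 CG pairs, that of Nqo1 5 and that of Acsm4 4. A match is a description of these letters and not evidence of a bound site.

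The libraries held 10256 to 10777 barcodes and 100725429 to 111577458 UMIs (unique molecular identifiers, each marking 1 captured RNA molecule), of which 9663 to 10220 barcodes were kept. Mature neurons (at least 10 UMIs of the olfactory marker protein gene Omp) numbered 4565 to 4805 per library, immature neurons (at least 10 of the growth-cone gene Gap43) 379 to 461, and supporting cells (at least 10 of the cytochrome P450 gene Cyp2g1) 1627 to 1758. The gates were checked against markers: the 7 mature-neuron markers summed to 15511 to 15874 CPM (a gene's UMIs in every 1000000 UMIs) in mature barcodes, and the 6 supporting-cell markers to 29523 to 33746 CPM in supporting barcodes. In mature barcodes the supporting-cell markers still summed to 315 to 426 CPM. Barcodes with at least 10 UMIs of Cyp2g1 and of a neuronal marker, 654 to 737 per library, were left out as mixed. Library pairs shared 136 to 172 barcode names, and no library was a copy of another.

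Among mature neurons Nqo1 was carried by few barcodes at high level and Ncam2 by many at low level. Nqo1 stood at 266, 239, 237 and 352 CPM in female 1, female 2, male 1 and male 2 (mean 273 ± 54.0 SD, n = 4). Acsm4 stood at 77.2, 71.2, 75.8 and 105 CPM in the same order, and Ncam2 at 177, 172, 181 and 166 CPM. Male 2 was thus the highest library for Nqo1 and Acsm4 and the lowest for Ncam2, although the Ncam2 spread was small (SD 6.62). Nqo1 UMIs were found in 21.1% of mature barcodes, Acsm4 in 19.5% and Ncam2 in 61.8%. UMI counts from transcript ends carry no length factor, but capture of each gene was not measured, so these CPM compare genes only roughly. In barcodes classed by markers as neuronal precursors, Nqo1 had a UMI in 5.27% and Acsm4 in 4.37%. Their median depths were 8424 to 9128 UMIs, against 7969 to 8754 in mature neurons. After thinning every barcode to 2000 UMIs the shares were 15.5%, 11.3% and 27.4% in mature neurons, against 1.84% (Nqo1) and 1.72% (Acsm4) in precursors. Mature barcodes under 4000 UMIs (1911) held more Ncam2, 280 ± 24.2 against 170 ± 6.40 CPM in deeper ones (SD, n = 4), while Nqo1 was 252 against 274 CPM.

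Nqo1 and Acsm4 were higher in mature than in immature neurons, and Ncam2 was lower. Immature neurons held Nqo1 at 57.8, 45.9, 28.4 and 40.2 CPM and Ncam2 at 272, 320, 322 and 297 CPM in female 1, female 2, male 1 and male 2. Acsm4 stood at 16.8 ± 2.88 CPM (SD, n = 4) in immature neurons. None of the 3 genes overlapped between stages in any library. In edgeR's quasi-likelihood test the log2 change from immature to mature was 2.84 ± 0.16 (SE) for Nqo1 (adjusted p = 9.61e-06), 2.46 ± 0.13 for Acsm4 (adjusted p = 6.8e-06) and -0.59 ± 0.05 for Ncam2 (adjusted p = 6.32e-05). All 3 passed, where 69.5% of all 14077 genes tested did, 34.3% as higher and 35.2% as lower. Barcodes classed as precursors held Ncam2 at 174 ± 11.8 CPM (SD, n = 4), close to the mature level. They held Nqo1 at 6.85 ± 2.64 and Acsm4 at 6.82 ± 1.90 CPM. Of the markers that set this class, Lhx2 and Ebf1 also stood at 346 and 368 CPM in mature neurons. Neurod1, Neurog1 and Sox11 stood at 13.3, 3.14 and 42.1 CPM there.

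**Figure D1:**
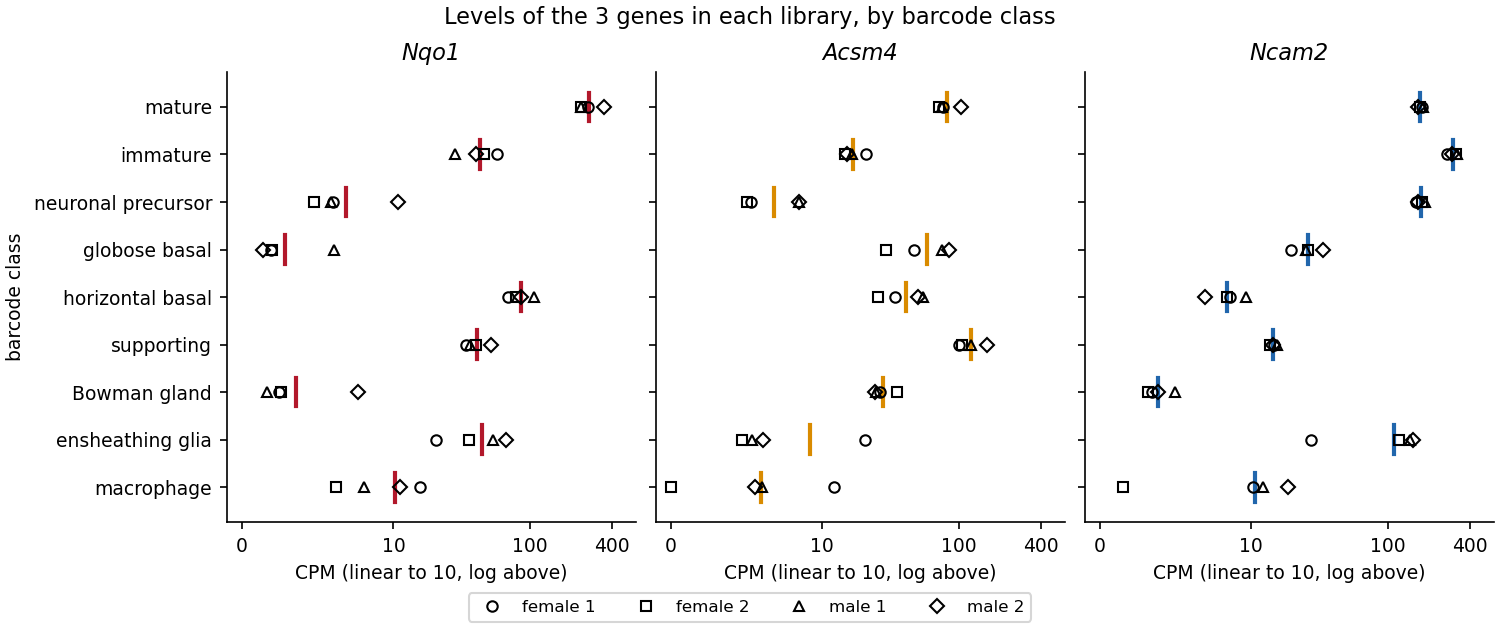
Level of each gene (CPM, axis linear to 10 and log above) in 9 classes of barcodes, with 1 symbol per library and a coloured bar at the mean of the 4 libraries. Nqo1 was highest in mature neurons (mean 273 CPM), Acsm4 in supporting cells (123 CPM) and Ncam2 in immature neurons (303 CPM).

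Among the larger classes outside the neuronal lineage, Acsm4 exceeded Nqo1 in supporting cells and Nqo1 exceeded Acsm4 in horizontal basal cells. Supporting cells, the columnar cells that wrap the neurons and metabolise inhaled chemicals, held Acsm4 at 99.9, 106, 123 and 162 CPM in female 1, female 2, male 1 and male 2. They held Nqo1 at 34.1, 40.6, 36.3 and 51.7 CPM and Ncam2 at 13.6 to 15.4 CPM. Against mature neurons, the log2 change in supporting cells in edgeR's test was 0.70 ± 0.05 (SE) for Acsm4 (adjusted p = 3.68e-06), -2.62 ± 0.06 for Nqo1 (adjusted p = 3.85e-09) and -3.46 ± 0.03 for Ncam2 (adjusted p = 9.88e-11). Of all 14597 genes tested, 89.4% passed in this comparison, so the calls alone single out none of the 3. Each library had more Acsm4 and less Nqo1 in its supporting cells than in its mature neurons.

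The stem cells of the epithelium separated Nqo1 from Acsm4. Horizontal basal cells, the reserve stem cells, held Nqo1 at 85.7 ± 16.1 CPM and Acsm4 at 41.1 ± 13.6 CPM (SD, n = 4, 250 to 397 barcodes per library). Globose basal cells, the cycling progenitors, held Acsm4 at 59.0 ± 25.7 CPM but Nqo1 at 2.85 ± 2.15 CPM, on 39 to 57 barcodes per library and 10 Nqo1 UMIs in all. Bowman gland cells, which are secretory, and ionocyte-like microvillar cells, which handle ions, resembled the globose basal cells in this respect. They held Acsm4 at 27.7 ± 5.16 and 41.7 ± 13.7 CPM and Nqo1 at 3.59 ± 2.76 and 4.83 ± 1.81 CPM. Ensheathing glia, which wrap olfactory axons, held Ncam2 at 120 to 152 CPM in 3 libraries and 27.4 CPM in female 1, where only 21 barcodes were found. These differences between the smaller classes were not tested.

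Neurons of class I receptors, taken as Olfr543 to Olfr692, stood at the far end of all 3 genes. Assignment to a receptor needed 3 UMIs of the leading receptor gene and 80% of all receptor UMIs in the barcode, which placed 16482 of 18691 mature barcodes and gave 1097 class I neurons. Class I neurons held Nqo1 at 1864, 1698, 1983 and 1737 CPM in female 1, female 2, male 1 and male 2, and class II neurons at 169, 159, 139 and 226 CPM. Acsm4 stood at 404 to 535 CPM in class I and 48.5 to 69.6 CPM in class II. Ncam2 was reversed, at 28.5, 37.4, 35.3 and 28.1 CPM in class I and 175 to 186 CPM in class II. No library of 1 class overlapped with any of the other for any of the 3 genes. The log2 difference of class I over class II in edgeR's test was 3.42 ± 0.09 (SE) for Nqo1 (adjusted p = 8.78e-14), 3.12 ± 0.08 for Acsm4 (adjusted p = 5.82e-14) and -2.48 ± 0.07 for Ncam2 (adjusted p = 1.57e-13). All 3 passed, where 20.1% of all 12491 genes tested did: 9.39% were higher and 10.7% lower in class I. When receptors were weighted equally the members' directions held, while 782 genes passed in place of 2509.

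**Figure D2:**
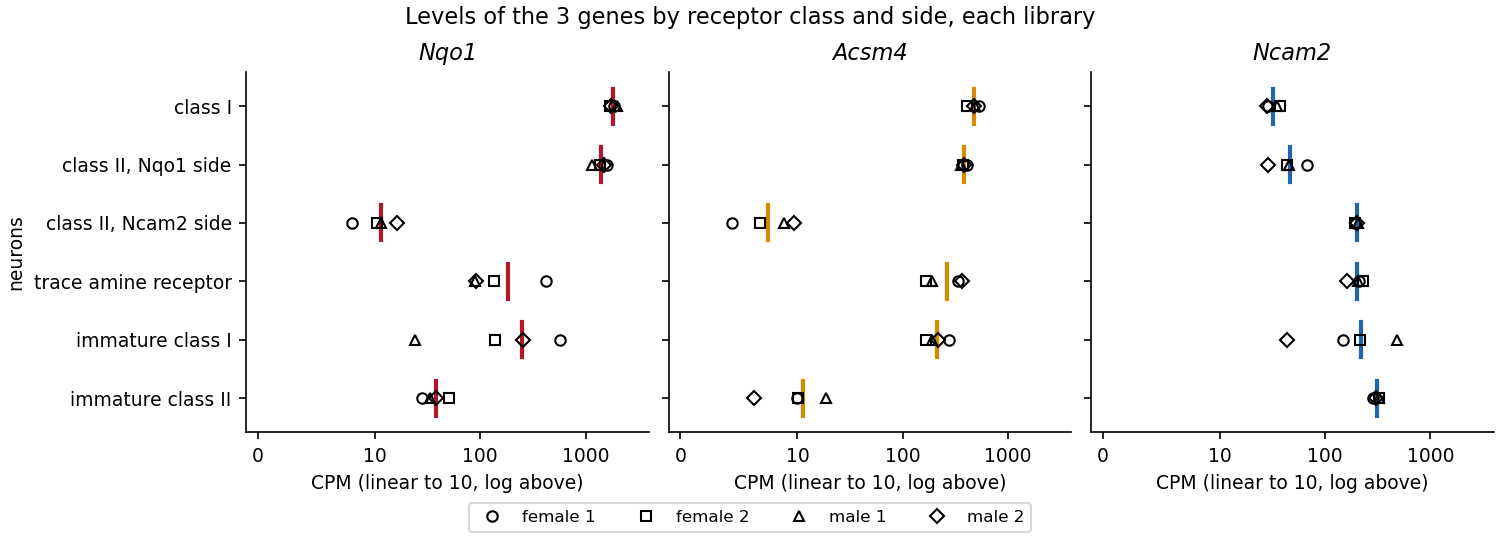
Level of each gene (CPM, axis linear to 10 and log above) in neurons grouped by receptor class and side, with 1 symbol per library and a coloured bar at the mean. Class I neurons (Nqo1 mean 1821 CPM) lay beside the class II neurons of the Nqo1 side (1404 CPM) and apart from those of the Ncam2 side (11.5 CPM).

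Listed zone genes differed in both directions between the classes. Of 14 tested genes of guidance and zonal patterning, 3 were higher, 7 were lower and 4 did not pass. The list's median log2 difference was -0.29, against -0.01 over all genes, of which 20.1% passed. Nfix, a nuclear factor I transcription factor, was lower in class I at 28.4 ± 5.36 against 243 ± 17.2 CPM (SD, n = 4), a log2 difference of -3.10 ± 0.07 (edgeR adjusted p = 2.3e-14). Its relatives Nfib (-1.94) and Nfia (-1.29) were lower as well. Robo2, a receptor for Slit guidance cues, was higher at 211 against 84.1 CPM, and Nrp2, a semaphorin receptor, was lower at 39.2 against 145 CPM. The semaphorin genes Sema3a (log2 1.35) and Sema3f (0.56) were higher, and the semaphorin receptor gene Nrp1 (-1.28) was lower.

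Genes of the antioxidant programme to which Nqo1 belongs did not follow it as a group. Of 18 tested genes known as targets or partners of the transcription factor gene Nfe2l2, 5 were higher, 5 lower and 8 did not pass in class I. Their median was -0.03, and of all genes 9.39% passed as higher and 10.7% as lower. Ephx1, an epoxide hydrolase, was lower at 24.4 against 91.3 CPM, and Me1, malic enzyme, was higher at 34.6 against 13.9 CPM. Nfe2l2 itself was 399 ± 29.5 against 457 ± 7.34 CPM (log2 -0.18). Of the members' own families, 5 of 8 genes were tested and 1 passed, Ncam1, at 1698 against 1493 CPM (log2 0.20 ± 0.04, edgeR adjusted p = 0.00109). As 20.1% of all genes passed, this count does not set the families apart.

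Some genes differed more between the classes than the members did. By size of change among genes with a mean of at least 10 CPM over both classes, the 5 most raised genes in class I were Tafa4, a secreted chemokine-like protein, at 29.5 against 0.188 CPM (log2 7.24), Adgrv1 (4.92), S100z (4.18), Tmem52 (3.65) and Fxyd2 (3.45). The 5 most lowered were Avp, which encodes vasopressin (log2 -5.09), Pdlim1 (-4.01), the haemoglobin genes Hbb-bt (-4.01) and Hbb-bs (-3.73), and Plxnb3, a semaphorin receptor (-3.32). Hbb-bs stood at 13.6 ± 7.13 CPM in class I and 178 ± 49.3 CPM in class II (SD, n = 4). The red cell marker list summed to 4.34 to 23.4 CPM in class I and 154 to 268 CPM in class II, mostly Hbb-bs, whereas the erythroid gene Alas2 was at 0.225 against 0.954 CPM. The part of red cell RNA in this difference was not tested.

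Class II receptors split into those with Nqo1 and those with Ncam2. Receptors with at least 10 neurons over the 4 libraries numbered 491, of which 44 were class I and 447 class II. Each was placed by the Nqo1 share of its Nqo1 plus Ncam2 UMIs. The share was over 80% for 114 receptors, under 20% for 342 and between for 35. The bins at both ends, 308 receptors at 0% to 10% and 110 at 90% to 100%, held most receptors, and no receptor lay between 60% and 70%. A receptor counts as on the Nqo1 side when its Nqo1 CPM exceeded its Ncam2 CPM, which held for 42 of 44 class I and 85 of 447 class II receptors (19.0%). Of 254 receptors with at least 3 neurons in every library, 232 were on the same side in all 4 libraries. Of the 30 of these on the Nqo1 side, 24 were.

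**Figure D3:**
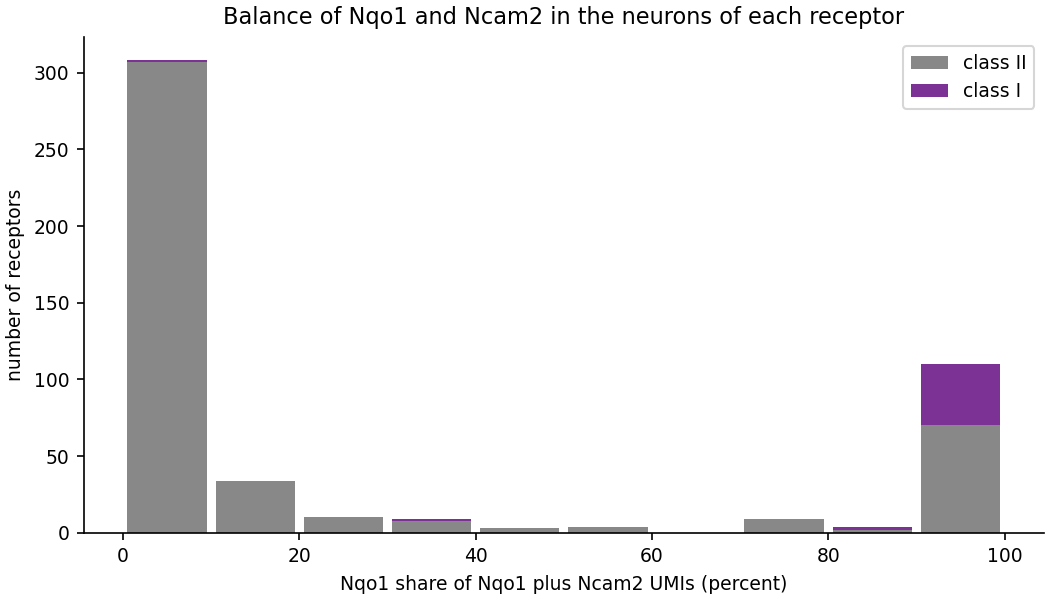
Number of receptors (bars, class I stacked on class II) by the Nqo1 share of Nqo1 plus Ncam2 UMIs (percent) in their neurons, 491 receptors with the 4 libraries summed. The bars at the ends hold 308 and 110 receptors, and the bin from 60% to 70% is empty.

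Levels varied widely among receptors on the Nqo1 side. Nqo1 was highest in neurons of Olfr77 (5646 CPM, 14 neurons), Olfr1039 (4525 CPM, 10 neurons) and the class I receptor Olfr655 (4301 CPM, 16 neurons). Across the 114 receptors with shares over 80% it ran from 6.48 to 5646 CPM. Acsm4 was highest in Olfr875 (1050 CPM, 10 neurons) and Olfr1156 (984 CPM, 10 neurons), and Ncam2 in Olfr112 (523 CPM, 13 neurons) and Olfr704 (483 CPM, 16 neurons). Over all 491 receptors, log2(CPM + 10) of Nqo1 correlated with that of Acsm4 at Pearson r = 0.875 (Spearman rho = 0.654) and with that of Ncam2 at r = -0.797 (rho = -0.550). The set of high share includes receptors placed by few UMIs, such as Olfr1034 with 1 Nqo1 UMI. Receptors share the libraries and each point's 3 values share the same neurons, so these values describe the receptors and carry no p. Within the 114 receptors of high share, Nqo1 and Acsm4 had Pearson r = 0.019 and Spearman rho = 0.157, although each gene kept its order between females and males (r = 0.864 for Nqo1 and 0.733 for Acsm4).

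**Figure D4:**
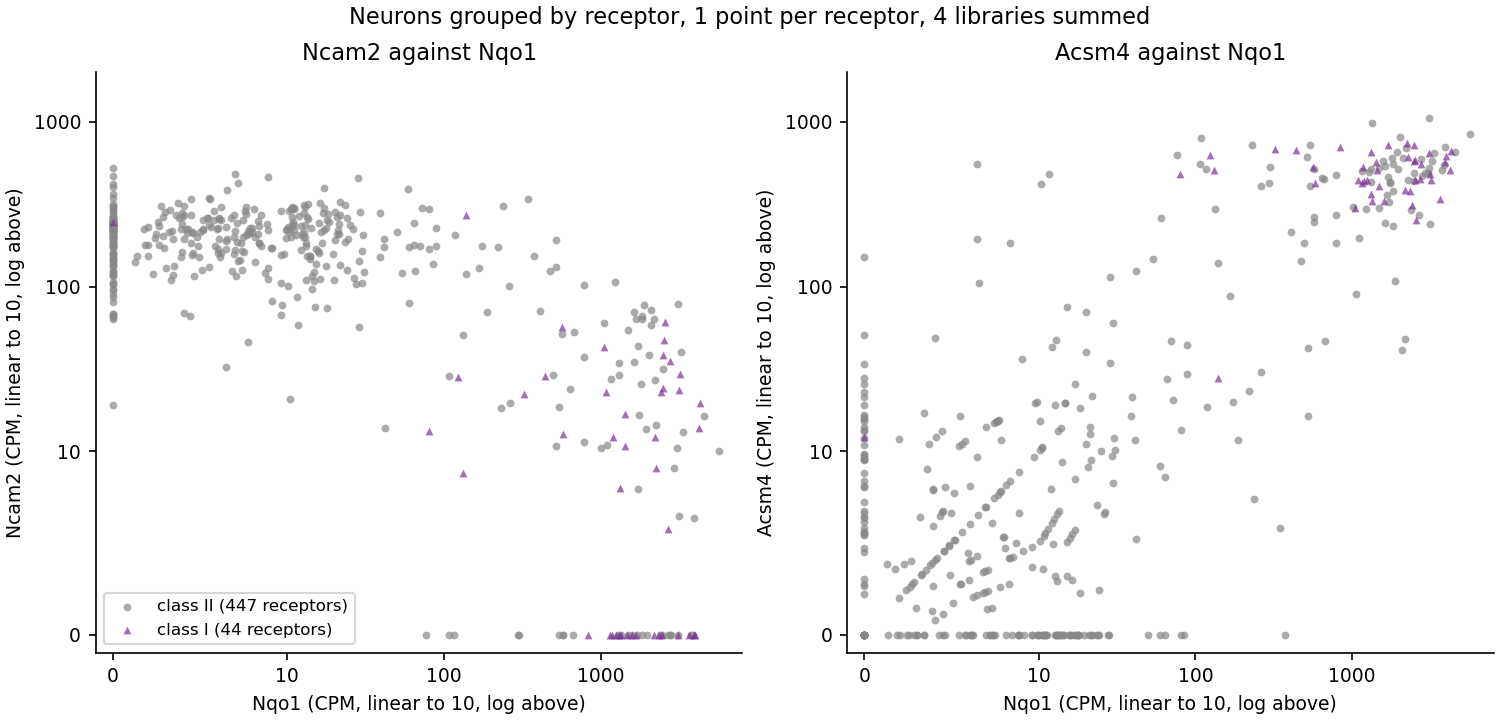
Ncam2 (left) and Acsm4 (right) against Nqo1 in the neurons of each of 491 receptors (CPM, axes linear to 10 and log above), 1 point per receptor with the 4 libraries summed, class I as triangles. Receptors high in Nqo1 were low in Ncam2 and high in Acsm4, and among the 114 receptors of high Nqo1 share Acsm4 and Nqo1 had Pearson r = 0.019 and Spearman rho = 0.157.

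The combinations of the 3 genes were counted at a level of 100 CPM. Ncam2 alone reached it in 330 receptors, and Nqo1 with Acsm4 but without Ncam2 in 107. Nqo1 with Ncam2 reached it in 11, all 3 genes in 4, Acsm4 with Ncam2 in 4, Nqo1 alone in 5, Acsm4 alone in 9 and none in 21. The receptors with Acsm4 alone were Olfr1012, Olfr1013, Olfr1034, Olfr1036, Olfr1048, Olfr1168, Olfr1340, Olfr691 and Olfr769, which were singled out after their values were seen. Olfr1034 had Acsm4 at 557 CPM but Nqo1 at 6.48 CPM, and 16 of its 17 neurons had an Acsm4 UMI. Its Acsm4 stood at 454, 632, 437 and 596 CPM in female 1, female 2, male 1 and male 2, on 2 to 7 neurons per library.

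All but 2 class I receptors were on the Nqo1 side, and those 2 were also chosen by their values. Neurons of Olfr686 had Nqo1 at 0 and Ncam2 at 246 CPM (23 neurons), and none of them had an Nqo1 UMI. Neurons of Olfr571 had Nqo1 at 139 CPM and Ncam2 at 271 CPM (33 neurons), where 2 neurons held at least 5 Nqo1 UMIs and female 2 alone reached 987 CPM on 5 neurons. Both genes lie inside the class I cluster on chromosome 7. Among the remaining class I receptors Nqo1 was lowest in Olfr691 (80.3 CPM), Olfr575 (123 CPM) and Olfr578 (132 CPM), all of which held Acsm4 at 482 to 627 CPM, and highest in Olfr655. Olfr691 was not on the same side in all 4 libraries.

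Position in the genome went with side only in part. Of 24 receptor clusters with at least 5 of these receptors, 18 held both sides, 6 held the Ncam2 side and none the Nqo1 side alone. In the class I cluster (chr7:102482031-105342270) 43 of 45 receptors were on the Nqo1 side, and in a cluster on chromosome 9 (chr9:37708964-40114206) 16 of 20 were. The largest, chr2:85330779-90403897, had 19 of 106 on the Nqo1 side, and chr2:111230360-112159157 had 0 of 24. Among class II receptors, 338 of 409 neighbouring pairs (82.6%) were on the same side, against 69.2% if sides were independent of place.

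Acsm4, which did not enter the definition of the sides, differed strongly between them within class II. The side of a receptor in 1 library was taken from the other 3 libraries, which gave 1265 neurons on the Nqo1 side and 12289 on the Ncam2 side. Acsm4 stood at 411, 371, 360 and 383 CPM on the Nqo1 side and at 4.39, 6.84, 8.83 and 9.71 CPM on the Ncam2 side in female 1, female 2, male 1 and male 2. The sides were far from overlapping. The log2 difference of the Ncam2 over the Nqo1 side was -5.71 ± 0.12 (SE) in edgeR's test (adjusted p = 3.71e-16), where 22.7% of 12237 genes passed, 10.8% as lower and 11.9% as higher. The other two members chose the sides and are given as values only: Nqo1 was 1147 to 1592 against 8.07 to 16.0 CPM, and Ncam2 28.9 to 68.0 against 194 to 205 CPM.

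Zone genes differed between the sides of class II as well. Of 14 tested, 6 were higher and 4 lower on the Ncam2 side, with a list median of 0.26 against 0.01 over all genes. Between the sides 11.9% of all genes passed as higher and 10.8% as lower. Nfib stood at 135 ± 11.7 against 25.9 ± 5.34 CPM (SD, n = 4), Nfix at 272 against 77.5 CPM, Nrp2 at 165 against 33.5 CPM and Nfia at 31.8 against 7.58 CPM. Robo2 was lower at 69.8 against 173 CPM, and the ephrin receptor gene Epha5 was higher at 456 against 286 CPM. Nrp1, which had passed between the classes, stood at 45.8 against 40.7 CPM, a log2 difference of 0.16 (edgeR adjusted p = 0.245). Antioxidant genes were again divided, with 4 higher, 4 lower and 10 that did not pass: Ephx1 was 105 against 34.1 CPM and Me1 10.1 against 38.2 CPM on the Ncam2 and Nqo1 side. Of 5 family genes tested, 1 passed, Ncam1 with a log2 difference of -0.12, where 22.7% of all genes did.

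The largest changes between the sides were taken among genes with a mean of at least 10 CPM over both sides. On the Ncam2 side the largest increases were those of Avp (103 against 3.77 CPM), Mdga2 (32.1 against 1.35 CPM), Pdlim1 (92.9 against 5.08 CPM), the cannabinoid receptor gene Cnr1 (22.8 against 1.55 CPM) and Ifi27 (169 against 15.1 CPM). The largest decreases were those of Papss2, a sulphate-donor synthase (7.67 against 105 CPM), the neuropeptide gene Cartpt (309 against 1963 CPM), Nob1 (18.0 against 102 CPM), Acss3 (5.59 against 31.2 CPM) and Cobl (3.23 against 17.2 CPM). Avp and Pdlim1 were also among the genes most lowered in class I. Nob1 lies on the same strand as Nqo1, 9.28 kb before its start (chr8:107412486-107425051). Markers of blood cells moved with the sides. The red cell list summed to 87.8 to 279 CPM on the Ncam2 side and 7.95 to 26.6 CPM on the Nqo1 side, mostly Hbb-bs (160 ± 62.6 CPM on the Ncam2 side, SD, n = 4, log2 difference 3.38), with 2 of 5 markers at 0 on the Nqo1 side. The macrophage list summed to 14.7 to 31.3 against 0.919 to 2.21 CPM, with 2 of 5 at 0, among them C1qa (6.70 CPM against 0). Gap43 was higher on the Ncam2 side, at 93.4 against 48.6 CPM. The immature-neuron list of 7 markers, to which it belongs, was not: it summed to 732 to 864 CPM there and 762 to 961 CPM on the Nqo1 side. The part of blood cells and of immature neurons in the differences between sides was not tested.

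The most frequent receptors all lay on the Ncam2 side. Of 57 receptors with at least 10 neurons in every library, Nqo1 stood between 0 and 29.8 CPM, Acsm4 between 0 and 11.9 CPM and Ncam2 between 111 and 346 CPM. Ncam2 differed between these receptors (edgeR F = 7.85, adjusted p = 3.4e-26), where 30.6% of 9946 genes passed. Nqo1 did not pass (F = 1.46, adjusted p = 0.0895), and Acsm4 was too low to be tested. Neurons of Olfr1264 held the most Ncam2, at 314, 345, 304 and 429 CPM in female 1, female 2, male 1 and male 2, followed by Olfr1247 (341 CPM) and Olfr1423 (307 CPM). The lowest were Olfr727 at 93.6, 105, 128 and 141 CPM, Olfr309 (115 CPM) and Olfr741 (120 CPM). The ends of this order did not overlap, whereas the 3 receptors at each end overlapped with one another. Ncam2 kept its order between females and males (r = 0.725 over 57 receptors).

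The 3 highest Nqo1 values in this set came mostly from 1 neuron each. Olfr211 led with 29.8 CPM, of which 105 CPM in female 2 came with 16 UMIs in 1 neuron. Olfr1260 followed with 21.5 CPM and Olfr727 with 16.2 CPM. Olfr1415 had no Nqo1 UMI, and Olfr455 (1.28 CPM) and Olfr1206 (1.37 CPM) had 1 each. For Acsm4, the highest were Olfr742 (11.9 CPM), Olfr1260 (9.54 CPM) and Olfr730 (9.06 CPM), and Olfr1206, Olfr1301 and Olfr169 were among those at 0.

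With 5 neurons per library as the limit, 148 receptors remained, 7 of them on the Nqo1 side, and all 3 genes differed between receptors. Nqo1 had F = 51.3 (edgeR adjusted p = 1.68e-204, the 5th largest of 9294 genes), Acsm4 F = 14.7 (adjusted p = 1.65e-95) and Ncam2 F = 6.14 (adjusted p = 5.32e-50), and 33.0% of genes passed. The receptors on the Nqo1 side included Olfr672 (3922 CPM), Olfr1361 (3728 CPM), Olfr591 (3140 CPM), Olfr24 (1819 CPM) and Olfr598 (1194 CPM), while Olfr827 (260 CPM) and Olfr794 (167 CPM) were near balance. Olfr672 held Nqo1 at 4424, 3425, 4654 and 3572 CPM in female 1, female 2, male 1 and male 2, with no Ncam2 UMI in 36 neurons. All 12 zone genes tested also differed between receptors, both here and among the 57, as did 12 of 17 antioxidant genes (11 of 18 among the 57).

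The genes whose levels across the 148 receptors were most like those of the members were found by the lower of the r in females and in males. For Nqo1 they were Acsm4 (0.809), Nob1 (0.604), Acss2 (0.502), Hs3st5 (0.481) and Gpc1 (0.475), and for Acsm4 Nqo1 and the same 4 genes (0.457 to 0.534). For Ncam2 they were Nfix (0.683), C130074G19Rik (0.454), Sytl1 (0.450), Gldc (0.446) and Nfib (0.432). Nfix was also the gene most opposite to Nqo1 (-0.753). Only 7 of the 148 receptors were on the Nqo1 side, and rank correlations were weaker. Spearman rho was 0.386 for Nqo1 with Acsm4 and -0.135 for Nqo1 with Ncam2 over the same receptors. Between females and males rho was 0.269 for Nqo1, 0.171 for Acsm4 and 0.643 for Ncam2. Among the 57 receptors, which vary little in Nqo1 and Acsm4, the closest gene to Nqo1 was Cbx3 (0.314) and to Acsm4 Lyz2 (0.423). Neither member kept its order there between females and males (r = -0.051 for Nqo1 and -0.106 for Acsm4). Ncam2 was there most like H2bc21 (0.683), Hdlbp (0.683), Ell2 (0.660), Klhl5 (0.652) and Plxna1 (0.645).

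Single mature neurons held Nqo1 or Acsm4 together with Ncam2 less often than expected from the share of each gene. Barcodes were thinned to 2000 UMIs each, which left 18476, and the number with both genes was set against that given by the 2 shares alone. Nqo1 and Acsm4 were found together in 1464 barcodes against 335 expected, a mean log2 ratio of 2.20 ± 0.32 (SD, n = 4) with 2.54, 2.27, 2.21 and 1.77 in female 1, female 2, male 1 and male 2. Nqo1 and Ncam2 were found together in 180 against 783 (log2 -2.12 ± 0.12), and Acsm4 and Ncam2 in 119 against 571 (log2 -2.28 ± 0.13). All 4 libraries agreed in direction for each pair. An exact sign-flip permutation test over 4 libraries cannot reach 0.05. Without thinning, 1022 of 3960 barcodes with Nqo1 also held Ncam2, against 2429 expected (log2 -1.25). Of 3659 with Acsm4, 820 did, against 2243 expected (log2 -1.46).

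The level of Nqo1 in a neuron went with the share holding the other genes. Without thinning, 71.4% ± 1.18 of 14731 mature barcodes with no Nqo1 UMI held Ncam2 and 6.06% ± 1.55 Acsm4 (SD, n = 4). Of 1543 with 1 to 4 Nqo1 UMIs, 46.2% held Ncam2 and 40.3% Acsm4. Of 2417 with at least 5, 13.2% ± 1.72 held Ncam2 and 88.7% ± 2.38 Acsm4. Ncam2 fell from 200 to 130 and 33.5 CPM over the 3 bins.

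Expected numbers within receptors were closer to the observed ones than those over all receptors. Over 14202 neurons of the 491 receptors, thinned to 2000 UMIs each, 101 held Nqo1 and Ncam2. This compares with 468 expected from the shares over all receptors and 118 from the shares within each receptor. Nqo1 and Acsm4 occurred together in 825, against 132 over receptors and 782 within. Acsm4 and Ncam2 occurred together in 49, against 337 over receptors and 71.3 within. Library by library, only receptors with at least 5 neurons in that library were used, 251 to 304 of them, so these ratios cover fewer neurons. The within-receptor ratio for Nqo1 and Ncam2 was 1.26, 0.913, 0.752 and 0.750 in female 1, female 2, male 1 and male 2, so the libraries fell on both sides of 1. For Acsm4 and Ncam2 it lay between 0.780 and 0.847. In the 35 receptors with Nqo1 shares of 20% to 80%, 17 of 694 neurons held Nqo1 and Ncam2 against 21.2 expected within receptors, and 18 held Nqo1 and Acsm4 against 7.95. In the 114 receptors of high share, 22 held Nqo1 and Ncam2 against 37.5, a ratio of 0.586, and 16 held Acsm4 and Ncam2 against 25.8. In the 342 of low share, 52 held Nqo1 and Ncam2 against 54.2, and 7 held Nqo1 and Acsm4 against 1.85. Differences between these sets were not tested.

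**Figure D5:**
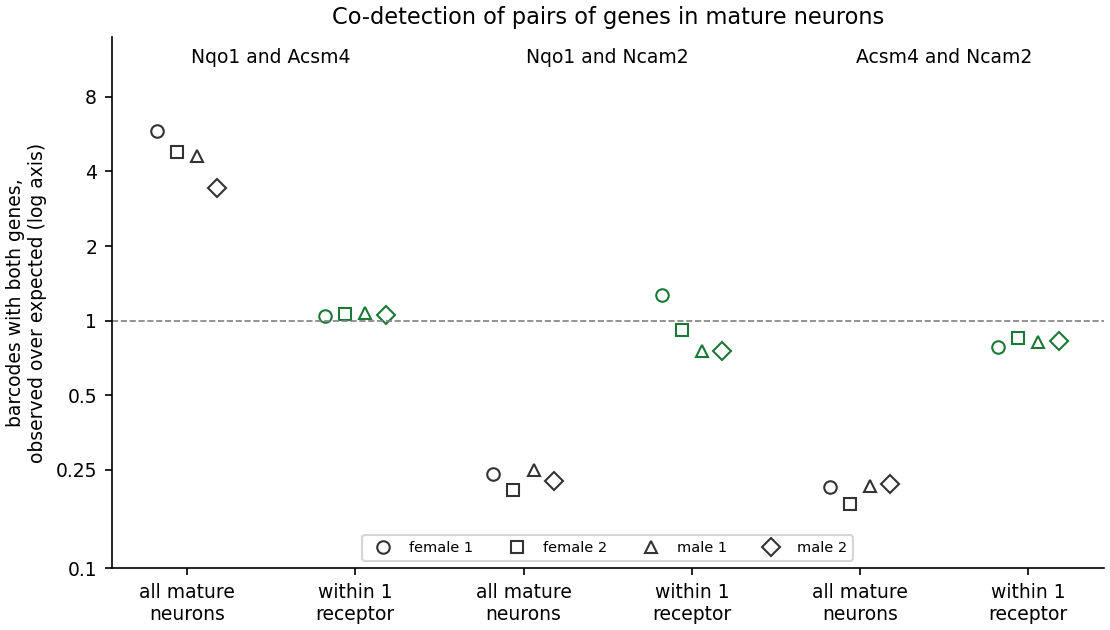
Number of mature barcodes with both genes of a pair over the number expected (log axis), 1 symbol per library, for all mature neurons (black) and within receptors that had at least 5 neurons in that library (green); the dashed line marks 1. The Nqo1 and Ncam2 ratio was 0.230 over all neurons and spread from 0.750 to 1.26 within receptors.

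For receptors of balanced levels, neurons were counted without thinning, so these numbers do not compare with the thinned ones above. Of 46 Olfr523 neurons, 24 held Ncam2 only, 6 Nqo1 only and 1 both, against 3.80 expected. Of 23 Olfr1330 neurons, 11 held Ncam2 only, 3 Nqo1 only and 7 both, against 7.83 expected. Olfr794 had 5 with both against 4 expected in 32 neurons. Olfr1274 had 3 with both against 4.32 expected in 37 neurons, and Olfr571 had 2 against 2.64 in 33. These numbers are small, and whether the 2 genes were kept apart within a receptor was not tested. Among the 57 frequent receptors the nearest to balance were Olfr211, Olfr727, Olfr1260, Olfr726 and Olfr743, in which at most 1 neuron held 5 or more Nqo1 UMIs.

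Neurons of the trace amine-associated receptors, a small receptor family, held all 3 genes when summed, but not receptor by receptor. Over 85 neurons Acsm4 stood at 333, 165, 190 and 363 CPM and Ncam2 at 209, 230, 208 and 163 CPM in female 1, female 2, male 1 and male 2. Nqo1 was 424 CPM in female 1 and 88.3 to 136 CPM in the others. Single receptors of the family differed: Taar2 had Acsm4 at 619 CPM with Nqo1 and Ncam2 at 18.8 CPM each (7 neurons), Taar7b had Ncam2 at 267 CPM with no Nqo1 UMI (14 neurons), and Taar7f had Nqo1 at 710, Acsm4 at 381 and Ncam2 at 393 CPM (9 neurons). Taar6 (10 neurons) and Taar7a (7 neurons) also had no Nqo1 UMI, with Acsm4 at 30.8 and 112 CPM and Ncam2 at 185 and 210 CPM. With 1 to 14 neurons per receptor these values were not tested.

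In immature neurons Acsm4 was higher in class I than in class II in each library, on few neurons and without a test. The class I sums held 16, 6, 3 and 14 neurons in female 1, female 2, male 1 and male 2. In male 1, 33.3% of the 3 neurons had an Acsm4 UMI. Only 39 immature neurons had a class I receptor, and they held Acsm4 at 213 ± 46.8 CPM (SD, n = 4) against 11.3 in immature class II neurons. Nqo1 was 247 ± 236 against 37.7 CPM and Ncam2 221 ± 186 against 309 CPM, and the classes overlapped between libraries in Nqo1 and Ncam2. Over all immature neurons thinned to 2000 UMIs, 5 held Nqo1 and Ncam2 against 27.6 expected, and 11 held Nqo1 and Acsm4 against 1.53. Without thinning 101 held Nqo1 and Ncam2 against 156.2 expected, and 60 held Nqo1 and Acsm4 against 12.7.

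Supporting cells with Acsm4 also held more Nqo1. Barcodes were thinned to 5000 UMIs and split by whether an Acsm4 UMI remained, giving 200 to 303 with and 1258 to 1411 without per library. Nqo1 stood at 94.0, 125, 109 and 155 CPM with Acsm4 and at 24.8, 19.4, 20.0 and 25.8 CPM without it in female 1, female 2, male 1 and male 2. The log2 difference was 2.49 ± 0.11 (SE) in edgeR's test (adjusted p = 3.09e-19), where 27.0% of 11337 genes passed, 14.5% as higher and 12.5% as lower. Ncam2 stood at 22.0, 5.71, 6.25 and 8.58 CPM with Acsm4 and at 12.9 to 17.2 CPM without, a log2 difference of -0.47 ± 0.26 (adjusted p = 0.197). It was lower in 3 of 4 libraries. Female 1 decided this value: without it the difference was -1.08 (edgeR adjusted p = 0.00304), and it also passed without the deepest 10% of barcodes (-0.72, adjusted p = 0.0434) and with a Cyp2g1 gate of 30 UMIs (-0.94, adjusted p = 0.00656). Thinned to 2000 UMIs, 171 supporting barcodes held Nqo1 and Acsm4 against 48.1 expected, and 13 held Nqo1 and Ncam2 against 11.4. Without thinning 705 held Nqo1 and Acsm4 against 389 expected.

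Zone genes of supporting cells mostly ran below in the barcodes with Acsm4. Of 14 tested, 3 were higher and 8 lower, with a median of -0.43 against -0.01 over all genes. In this comparison 14.5% of all genes passed as higher and 12.5% as lower. Nfia stood at 62.3 ± 11.3 against 111 ± 10.6 CPM (SD, n = 4) and Nfix at 42.5 against 79.1 CPM. Emx2, a homeobox gene, was higher at 40.6 against 10.9 CPM, and so were Epha5 (33.7 against 14.7 CPM) and Slit3 (4.96 against 1.08 CPM). Antioxidant genes leaned upward here: of 19 tested, 11 were higher, 2 lower and 6 did not pass, with a median of 0.22. Me1 was 15.3 against 3.85 CPM, Hmox1, haem oxygenase, 35.4 against 15.3 CPM, Srxn1, sulfiredoxin, 28.3 against 15.6 CPM and Gclc, of glutathione synthesis, 195 against 127 CPM. The exceptions were Ephx1, at 776 against 2411 CPM, and Txnrd1, thioredoxin reductase, at 351 against 529 CPM. Of 5 family genes tested, Cadm1 alone passed (log2 0.16), where 27.0% of all genes did.

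The largest differences between supporting cells with and without Acsm4 were larger than that of Nqo1. Among genes with a mean of at least 10 CPM over both groups, the most raised with Acsm4 were the transporters Slc22a2 (29.7 against 0.424 CPM), Slc22a20 (181 against 4.03 CPM) and Slc25a35 (544 against 16.1 CPM), the nuclear receptor Nr2f2 (30.7 against 0.532 CPM) and the cytochrome Cyp2a4 (51.3 against 1.72 CPM). Sult1c1, a sulphotransferase in the supporting-cell marker list, was 6612 ± 450 against 271 ± 36.3 CPM (SD, n = 4), whereas Cyp2g1 was 16969 against 14577 CPM. The most lowered were Chil4, the antigen-presentation genes H2-Aa, H2-Ab1 and Cd74, and the interferon-induced Iigp1. These varied between libraries: Chil4 without Acsm4 was 257, 112, 24.3 and 2.23 CPM in female 1, female 2, male 1 and male 2. The macrophage list summed to 0.660 to 3.57 CPM with Acsm4 and 10.4 to 37.2 CPM without it. The Bowman gland list summed to 2570 to 3352 against 1771 to 1864 CPM, with Muc5b at 212 against 13.1, Sox9 at 120 against 40.4, Aqp5 at 1287 against 811 and Agr2 at 1388 against 933 CPM. The ensheathing glia list of 6 markers summed to 83.2 to 148 CPM with Acsm4 and 65.2 to 89.3 CPM without it. Within it Sox10 was higher with Acsm4, at 85.9 against 19.2 CPM, while 2 markers were at 0 with Acsm4 and 0 markers without. The globose basal list summed to 74.1 to 91.0 against 99.2 to 123 CPM, with its proliferation marker Mki67 at 1.76 against 13.6 CPM. The fibroblast list was lower at 343 to 499 against 1091 to 1245 CPM, mostly Dcn. The part of other cell types in these differences was not tested.

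Males and females were compared over 2 libraries each, and no member passed. In mature neurons the log2 difference of male over female was 0.26 for Nqo1, 0.32 for Acsm4 and 0.03 for Ncam2 (edgeR adjusted p = 0.817, 0.758 and 0.939), where 0.00680% of 14715 genes passed. Without male 2 the Nqo1 difference was -0.050 and that of Acsm4 0.073, and without male 1 that of Ncam2 was -0.040. In supporting cells the differences were 0.28, 0.51 ± 0.12 (SE) and 0.12 (edgeR adjusted p = 0.801, 0.337 and 0.843), where 0.0875% of 13717 genes passed, 0.0510% as higher and 0.0365% as lower. At an unadjusted threshold of 0.05 Acsm4 in supporting cells passed in both edgeR and DESeq2, and the other 5 values passed in neither. At that level 963 genes passed in mature neurons and 950 in supporting cells in edgeR. Acsm4 in supporting cells was higher in both males than in either female. It passed without female 2 (0.55, adjusted p = 0.0254) and without male 1 (0.70, adjusted p = 0.0134), and was 0.29 without male 2, while Nqo1 was -0.0065 without male 2. Those fits leave 1 library in a group, which is assumed to vary like the others.

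The make-up of the libraries moved with these values. Class I receptors took 5.71%, 5.95%, 5.61% and 9.25% of assigned neurons in female 1, female 2, male 1 and male 2 (exact 95% interval 8.40% to 10.2% in male 2). Of class II neurons with a placed receptor, 7.94%, 8.59%, 9.26% and 11.6% were on the Nqo1 side. Thinned supporting barcodes held Acsm4 in 8.68%, 9.18%, 9.34% and 14.8%. Male 2 was therefore highest in the share of neurons and of supporting cells of the Nqo1 and Acsm4 kind, whereas its Nqo1 level within class I neurons, 1737 CPM, was the second lowest. In class II neurons male 2 was highest in Nqo1, at 226 CPM, as it was on the Ncam2 side, at 16.0 CPM, and on the Nqo1 side it was second to female 1, at 1499 CPM. The part of zone sampling in the difference between libraries was not tested. Such intervals cover counting error only.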

How the data were processed

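The deposited values are raw UMI counts for each gene in each barcode, made with Cell Ranger 6.0.2 per the file headers; the submitters' processing notes name Cell Ranger 5.0.1 and mm10. Positions are from GENCODE M21, which held 22285 of 22399 gene IDs. Barcodes under 500 genes or over 10% mitochondrial UMIs were left out. No doublet caller was run; mixed barcodes were removed and the 80% receptor rule applied. Of mature barcodes, 994 of 18691 lay at 10 to 14 Omp UMIs. Other classes needed 10 UMIs over at least 3 markers of 1 fixed list.

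Counts were summed per library and group and tested with edgeR 4.0.16 in R 4.3.3 (TMM, filterByExpr, quasi-likelihood, Benjamini-Hochberg at 0.05, library as a block except for sex). CPM have no further scaling. The receptor test used a common dispersion from the 5% of genes with the highest mean. The side comparison was planned on receptors with 10 neurons in each library, none of which was on the Nqo1 side, so receptors with 10 over all libraries were used; this and the 148-receptor likeness were chosen after seeing the data. Alternatives were DESeq2 1.42.0, other scaling, filters, gates, depths and leaving out each library. On simulated class I and class II counts (12491 genes), 84% of 1.5-fold and 100% of 3-fold changes were recovered and 7.07% of calls were false. Between sexes in mature neurons (14715 genes) the shares were 41%, 69% and 11.3%, and in supporting cells (13717 genes) 72%, 95% and 12.6%.

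The 3 members and the gene lists were chosen with earlier results of these data known. Named genes are the members, the listed genes, the 5 most alike across receptors, the 5 largest changes in each direction among genes that passed, with a mean of at least 10 CPM and the same direction in all 4 libraries, and receptors at the ends of each order, except where the text says otherwise. Values of 1 listed gene are not reported here.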

Additional observations from a re-analysis of the deposited data

Results flagged for a closer look

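Over the 4 libraries, 62 values were checked for a library that stood far from the others, and 6 did, where chance gives about 1 in 20. Male 2 had 9.25% class I neurons, against 5.61% to 5.95% in the others, and Acsm4 in 14.8% of thinned supporting barcodes, against 8.68% to 9.34%. Nqo1 in globose basal cells was 6.04 CPM in male 1 and 1.40 to 2.01 CPM in the others, on 10 UMIs in all. In Bowman gland cells it was 7.69 CPM in male 2 against 1.65 to 2.57 CPM. Acsm4 in ensheathing glia was 20.6 CPM in female 1, with 21 barcodes, against 4.69 to 6.10 CPM. In neurons of trace amine-associated receptors Nqo1 was 424 CPM in female 1 against 88.3 to 136 CPM.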

How the results depend on the processing

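Of 420 alternatives to the reported values, 378 were counted as the same. For a tested value this means the same direction and side of the threshold. For a number of genes it means within a fixed ratio of the reported number. For co-detection ratios and the Nqo1 and Ncam2 values between sides it means within the SD between libraries. Of the rest, 32 moved beyond these limits, 7 passed where the reported value did not, and 3 reversed direction. The numbers of genes passed moved most. With receptors weighted equally, 782 genes passed between classes. DESeq2 gave 1793 genes between sides, 1662 for the Acsm4 split, 279 between sexes in mature neurons and 68 in supporting cells, against 2776, 3059, 1 and 12 in edgeR. The Acsm4 split gave 1564 when thinned to 2000 UMIs, mature neurons gave 3 sex genes at gates of 30 UMIs, and supporting cells 20 without a filter. Leaving out 1 library gave 1 to 2 sex genes in mature neurons and 20 to 106 in supporting cells. The cause was not tested.

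For the members, Nqo1 between receptors had F = 51.3 with 5 barcodes per library, and the Ncam2 difference between sides was 2.70 without receptors at 20% to 80%, against 2.10. The Ncam2 difference in the Acsm4 split was -0.72 without the deepest barcodes, -0.94 at the higher Cyp2g1 gate and -1.08 to -0.29 without 1 library. Between sexes, leaving out 1 library gave -0.050 to 0.51 for Nqo1, 0.073 to 0.53 for Acsm4 and -0.040 to 0.10 for Ncam2 in mature neurons, and -0.0065 to 0.52 for Nqo1 and 0.29 to 0.70 for Acsm4 in supporting cells.

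The log2 co-detection ratios in mature neurons depended on depth. Nqo1 with Acsm4 was 1.86 without thinning. Nqo1 with Ncam2 was -2.49 at 1000 UMIs, -1.79 at 4000, -1.25 without thinning, -2.31 without the deepest barcodes, -2.32 with at least 2 UMIs of each gene and -2.34 in assigned barcodes. Acsm4 with Ncam2 was -2.06 at 4000 UMIs, -1.46 without thinning, -2.76 without the deepest barcodes and -2.89 in assigned barcodes.

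The labels number the replicates alike in both sexes without saying that a number marks a shared batch. The deviations of same-numbered libraries correlated at 0.108 in mature neurons and 0.284 in supporting cells. With the replicate number as a block, 202 genes passed between sexes in supporting cells, and Acsm4 there was 0.50 (edgeR adjusted p = 0.000904). No other call on a member changed under the block.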

Other observations

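Between stages, of 20 antioxidant genes tested, 11 were higher in mature neurons, 5 lower and 4 did not pass, among them Nfe2l2 (log2 2.08), Srxn1 (2.71) and Hmox1 (2.20), with Ftl1 lower (-1.88). Of all genes, 69.5% passed between stages. In supporting cells against mature neurons, 16 of 20 were higher and 4 lower, the latter including Nfe2l2 (-1.45), where 89.4% of all genes passed, so the count does not set the list apart. Of the members' families, Acsm3 stood at 65.3 CPM in supporting cells and 0.975 CPM in mature neurons, and Nqo2 was higher there (log2 1.91), whereas Ncam1 was lower (-4.15). Of barcodes with 2 receptors above the limit, 1098 in all, 32 held Nqo1 and Ncam2 after thinning against 68.9 expected.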
